A study of Mus with 2 samples.

Results

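Cd34-positive stem cells were examined among the hematopoietic stem cells (HSCs) that were sorted from the bone marrow of Mx1-Cre Id2+/+ and Mx1-Cre Id2Δ/Δ mice. They were the cells with at least 2 Cd34 unique molecular identifiers (UMIs, the tags that count single RNA molecules) and a UMI of at most 1 of 7 platelet genes (Pf4, Itga2b, Gp1bb, Treml1, F2r, Gp5 and Sdpr), taken from the cells that were left once cells rich in hemoglobin, erythroid or neutrophil RNA had been removed. There were 46 such cells among 263 retained Id2+/+ cells (17.5%, 95% interval 13.1 to 22.6) and 74 among 418 retained Id2Δ/Δ cells (17.7%, 14.2 to 21.7), or 120 of 681 retained and 981 called cells in all. Because these counts chose the cells, Cd34 and the 7 platelet genes are given as a description and support nothing.

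Each genotype was represented by 1 library from the tibias and fibulas of 5 pooled mice aged 8 to 12 weeks. Both genotypes carried Mx1-Cre, a recombinase that interferon switches on in HSCs and in many other cells, and it was induced with pIpC, a synthetic double-stranded RNA that elicits interferon. In Id2Δ/Δ mice it excised the loxP-flanked first exons of Id2, which codes for an inhibitor of DNA binding, and Id2+/+ mice kept the gene. From each pool 1000 cells were sorted as LSK FLT3– CD150+ CD48–, meaning lineage-negative Sca-1+ c-Kit+ cells selected on 3 further surface proteins, and were captured on the 10x Genomics Chromium. The study sequenced these cells to learn how HSCs lose their quiescence when Id2 is removed. Among the cell classes that it describes, activated HSCs are marked by Cd34, Sox4 and Ccnb2. A clause in the description of the Id2Δ/Δ sample names Id2+/+ bones as its source, but the deletion is given in both its title and its genotype field. With 1 library per genotype no test between genotypes was possible and no p-value is given. Values in parentheses after a level, share or ratio are 95% intervals, and they cover counting error only.

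CD34 is a sialomucin of the cell surface that the most dormant HSCs of adult mice carry little of and that appears as HSCs are activated or mature into multipotent progenitors. CD48, a signaling lymphocyte activation family member, is selected against by the sort, while CD34 was not part of the gate. Sox4, a transcription factor, and Plac8, a small cysteine-rich protein, are known from early progenitors, and Arhgap15 is a Rac GTPase-activating protein. RNA and surface protein need not move together, so the Cd34 RNA of a cell does not give its surface CD34.

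The Id2+/+ library held 8612217 UMIs and the Id2Δ/Δ library 17140713, of which called cells held 47.7% and 69.3%. Droplets without a cell held 46.3% and 22.4%, and free RNA of such droplets was estimated at 9.89% and 5.36% of the RNA of the Cd34-positive cells. Id2 had 22 UMIs in 20 of the 263 retained Id2+/+ cells and 0 in 418 retained Id2Δ/Δ cells, a count that still permits a UMI in as many as 0.718% of them. In the Cd34-positive cells it had 3 UMIs in 3 Id2+/+ cells and 0 in 74 Id2Δ/Δ cells, so its level there was hardly measurable in either library. The related Id1 and Id3 had 0 and 0 UMIs in the Id2+/+ cells and 4 and 0 in the Id2Δ/Δ cells. The libraries shared 1 called barcode, which was in no Cd34-positive cell.

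The median Cd34-positive cell had 7071 UMIs in the Id2+/+ library (range 4419 to 18046) and 8956 in the Id2Δ/Δ library (range 6181 to 18921). The median number of genes detected was 2662 and 2994. Levels below are UMIs summed over the cells of a group and given per 1000000 UMIs (CPM), and the sums were 346887 and 700813 UMIs. The main comparison group, the Cd34-undetected cells, had no Cd34 UMI and the same limit of 1 platelet gene. It had 60 cells in the Id2+/+ library and 54 in the Id2Δ/Δ library, with medians of 5729.5 and 7715.5 UMIs. They were shallower than the Cd34-positive cells, and a Cd34 UMI is missed more often in a shallow cell.

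Among the Cd34-undetected cells, 5 were rich in genes of another cell type and 0 of the Cd34-positive cells were. In the Id2+/+ library 1 cell of 7976 UMIs held 9779 CPM of B and plasma cell genes and 1 cell of 6287 UMIs held 2068 CPM of mast cell and basophil genes. In the Id2Δ/Δ library 1 cell of 46144 UMIs held 16969 CPM of erythroid genes, and 2 cells of 16482 and 7932 UMIs held 32520.3 and 54463 CPM of myeloid priming genes. Values without these 5 cells, an alternative chosen after the values were seen, stand beside only part of the results they move, and 58 and 51 comparison cells were then kept.

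Defining markers of B, T, mast and endothelial cells were at 0 in the Cd34-positive cells. Of 10 B and plasma cell genes, 3 and 4 had a UMI, summing to 49.0 and 31.4 CPM, and Cd79a, Ms4a1 and Pax5 were at 0. T and NK cell genes summed to 72.1 and 138 CPM, nearly all from Nkg7, with Cd3e, Cd3d and Cd3g at 0. Mast cell and basophil genes summed to 8.65 and 5.71 CPM, with Mcpt8 and Fcer1a at 0, and endothelial and stromal genes to 101 and 55.6 CPM, with Cdh5 and Kdr at 0. The rule removed cells by some of the neutrophil and erythroid genes, so sums over these lists are a description. Neutrophil genes summed to 1159 and 809 CPM, of which the 11 of 15 that the rule had not used gave 643 and 569 CPM. Erythroid genes, of which 19 of 19 had a UMI, summed to 3295 and 2649.8 CPM, and the 12 that the rule had not used gave 2272 and 1921 CPM. The richest single cell held 6255 and 6255 CPM of erythroid genes.

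Of the Cd34-positive cells, 26 of 46 and 40 of 74 held exactly 2 Cd34 UMIs, and the highest had 6 and 10. Summed Cd34 stood at 386 (324 to 458) CPM in the Id2+/+ and 347 (305 to 393) CPM in the Id2Δ/Δ cells, against 85.6 and 38.0 CPM in droplets without a cell. Cells at the limit, with 2 Cd34 UMIs, stood at 298 and 217 CPM. The 31 and 40 cells just outside it, with 1 Cd34 UMI, stood at 160 and 115 CPM. A UMI of 1 platelet gene was present in 25 of 46 and 49 of 74 of the cells, and 19 and 41 cells with at least 2 Cd34 UMIs were left out because they had exactly 2 platelet genes. Most of the cells thus lay at or within 1 UMI of the limit.

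Along the Cd34 count, from 0 over 1 and 2 to at least 3 UMIs, Plac8 and Mllt3 ran in opposite directions. In Id2+/+ cells Plac8 stood at 283, 336, 349 and 633 CPM, and in Id2Δ/Δ cells at 366, 342, 410.0 and 665 CPM. Cells with at least 3 Cd34 UMIs held the most Plac8 in both libraries. The cells with 0 Cd34 UMIs include the 5 rich in genes of another cell type, and without these they stood at 146 and 261 CPM. Mllt3, a transcription elongation factor known to sustain HSC self-renewal, stood at 245, 149.8, 91.6 and 29.0 CPM and at 189, 126, 84.2 and 57.1 CPM. It was lower at every step of the Cd34 count in both libraries. Sox4 followed no such order, at 358, 501, 487 and 296 CPM and at 366, 359, 345 and 436 CPM.

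Other genes of growth and dormancy were read along the same count. Myc, a driver of growth, stood at 70.0, 129, 126 and 197 CPM in Id2+/+ and 92.5, 141, 106 and 168 CPM in Id2Δ/Δ cells, with its highest level at the top of the Cd34 count in both. Cdkn1c, a cyclin-dependent kinase inhibitor of dormant HSCs, stood at 97.0, 93.0, 28.6 and 23.2 CPM in Id2+/+ and 81.8, 40.2, 48.9 and 33.1 CPM in Id2Δ/Δ cells. Procr, a surface receptor of long-term HSCs, stood at 124, 124, 97.3 and 46.5 CPM in Id2+/+ and 129, 86.2, 62.4 and 69.2 CPM in Id2Δ/Δ cells. Both were lower at the top of the count than in cells without Cd34, though the intervals of neighboring steps overlapped.

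**Figure D1:**
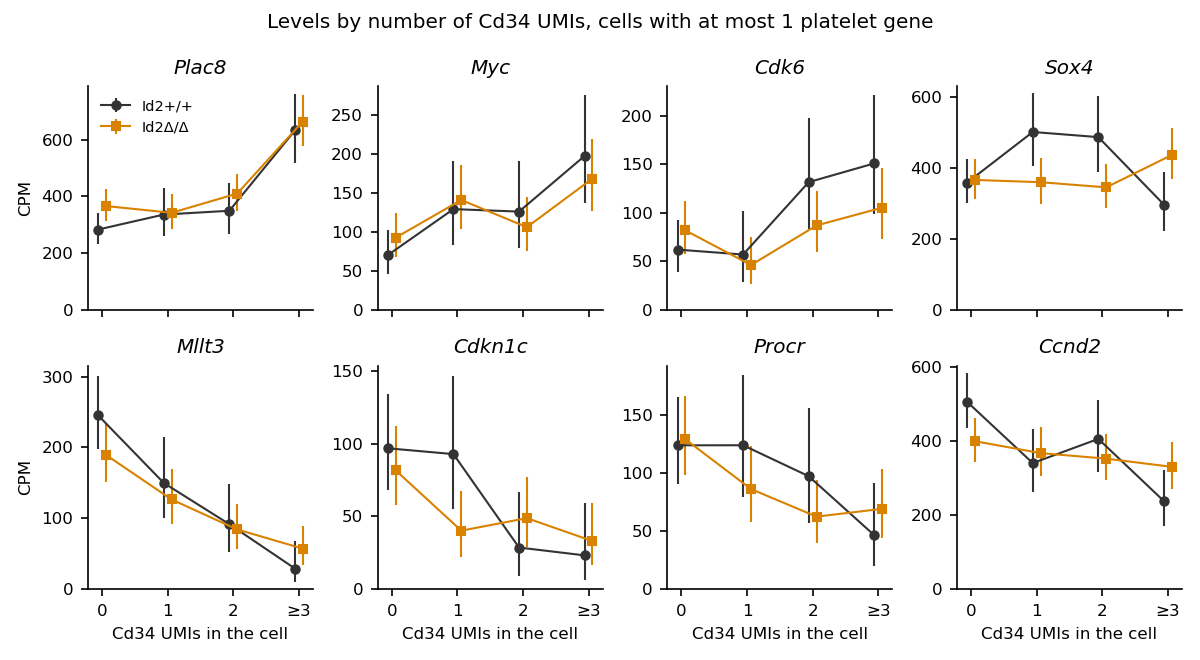
Level in CPM (per 1000000 summed UMIs) of named genes in cells with 0, 1, 2 and at least 3 Cd34 UMIs, by library, with at most 1 platelet gene per cell and bars for the 95% counting interval. Mllt3 stands lower at each higher Cd34 count in both libraries, and Plac8 stands highest, at 633 and 665 CPM, in the cells with at least 3 Cd34 UMIs.

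The genes that mark the class were checked in the cells the rule had chosen. Plac8 was higher in the Cd34-positive than in the Cd34-undetected cells, Sox4 and Arhgap15 had ratios that changed with the cells compared, and Cd48 was near 0 in Id2+/+ cells. Across all genes, 1 of 1022 with at least 100 UMIs in each library was higher by more than 1.5-fold in both libraries (0.0978%) and 4 of 1022 were lower (0.391%). With a minimum of 20 UMIs, 66 of 5012 were higher (1.32%) and 85 of 5012 lower (1.7%). Of the 4 marker genes that the rule had not used, 0 passed 1.5-fold in both libraries, and 1, Plac8, did so without the 5 cells rich in genes of another cell type. The cells are named here by the rule, as Cd34-positive.

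Plac8 (ENSMUSG00000029322, mm10 chr5:100551589-100572253) stood at 490.1 and 531 CPM in the Id2+/+ and Id2Δ/Δ Cd34-positive cells and at 283 and 366 CPM in the Cd34-undetected cells. The ratios were 1.73 (1.35 to 2.23) and 1.45 (1.21 to 1.75). Droplets without a cell held 517 and 238 CPM of Plac8, as much in the Id2+/+ library as the cells themselves, and with free RNA subtracted the ratios were 2.04 and 1.47. Thinned to 4000 UMIs per cell, 76.1% (61.2 to 87.4) and 70.3% (58.5 to 80.3) of the Cd34-positive cells had a Plac8 UMI, compared with 41.7% (29.1 to 55.1) and 51.9% (37.8 to 65.7) of the Cd34-undetected cells. The removed erythroid-gene cells, with medians of 35712 and 39870 UMIs before thinning, gave 26.5% and 10.3%. Unthinned, 39 of 46 and 62 of 74 Cd34-positive cells had one (84.8% and 83.8%).

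The Plac8 ratio depended on a few comparison cells. Among the Cd34-undetected cells, the 1 Id2+/+ cell rich in mast cell and basophil genes held 42.9% of the Plac8 UMIs of its group. In the Id2Δ/Δ library 1 of the cells rich in myeloid priming genes held 34.7%. Without the 5 cells rich in genes of another cell type the Plac8 ratios were 3.36 (2.45 to 4.68) and 2.03 (1.63 to 2.55). Restricted to cells of 6000 to 12000 UMIs the Id2+/+ ratio was 0.875, and in cells that had Xist but no Y-linked UMI it was 0.869. With the 5 cells left out as well, these became 2.71 and 3.17. In Id2Δ/Δ cells with none of the 7 platelet genes the ratio was 0.941.

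Sox4 (ENSMUSG00000076431, mm10 chr13:28948919-28953699) stood at 392 and 388 CPM in the Cd34-positive and 358 and 366 CPM in the Cd34-undetected cells, with ratios of 1.09 (0.855 to 1.40) and 1.06 (0.873 to 1.29). Both intervals held 1, but the ratios depended on the cells compared. They were 1.85 and 1.27 in thinned cells with a minimum of 1 Cd34 UMI, 1.74 and 1.64 with any number of platelet genes, and 1.39 and 1.89 against all other retained cells. A Sox4 UMI was found in 80.4% and 68.9% of thinned Cd34-positive cells and in 51.7% and 61.1% of thinned Cd34-undetected cells, compared with 11.8% and 6.45% of erythroid-gene cells. Arhgap15 (ENSMUSG00000049744, mm10 chr2:43748798-44395953) stood at 98.0 and 82.8 CPM against 88.9 and 49.5 CPM. Its ratios of 1.10 (0.663 to 1.84) and 1.67 (1.02 to 2.84) had 1 inside the Id2+/+ interval and just below that of Id2Δ/Δ cells, and without the 5 cells the Id2Δ/Δ ratio was 1.63 (0.967 to 2.86).

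Cd48 (ENSMUSG00000015355, mm10 chr1:171681245-171705258) had 2 UMIs in 2 of 46 Id2+/+ cells and 25 UMIs in 16 of 74 Id2Δ/Δ cells, or 5.77 and 35.7 CPM. In the Cd34-undetected cells it had 5 and 10 UMIs, and the ratios were 0.428 (0.0408 to 2.61) and 1.66 (0.769 to 3.87). The Id2Δ/Δ ratio depended on the cells compared. It was 3.601 (1.223 to 14.37) without the leading cell of each group and 2.082 (1.263 to 3.329) against all other retained cells. With any number of platelet genes it was 2.301 (1.386 to 3.934). With none of the 7 platelet genes it was 0.369 (0.08459 to 1.281). Droplets without a cell held 15.3 and 8.84 CPM of Cd48, so the Id2+/+ level did not stand above that of free RNA. The sort selected cells without CD48 on their surface. Cd34 itself (ENSMUSG00000016494, mm10 chr1:194938821-194961292) is the gene of the rule. The positions are those of RefSeq for the GRCm38.p6 assembly, and all 5 genes are protein-coding.

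**Figure D2:**
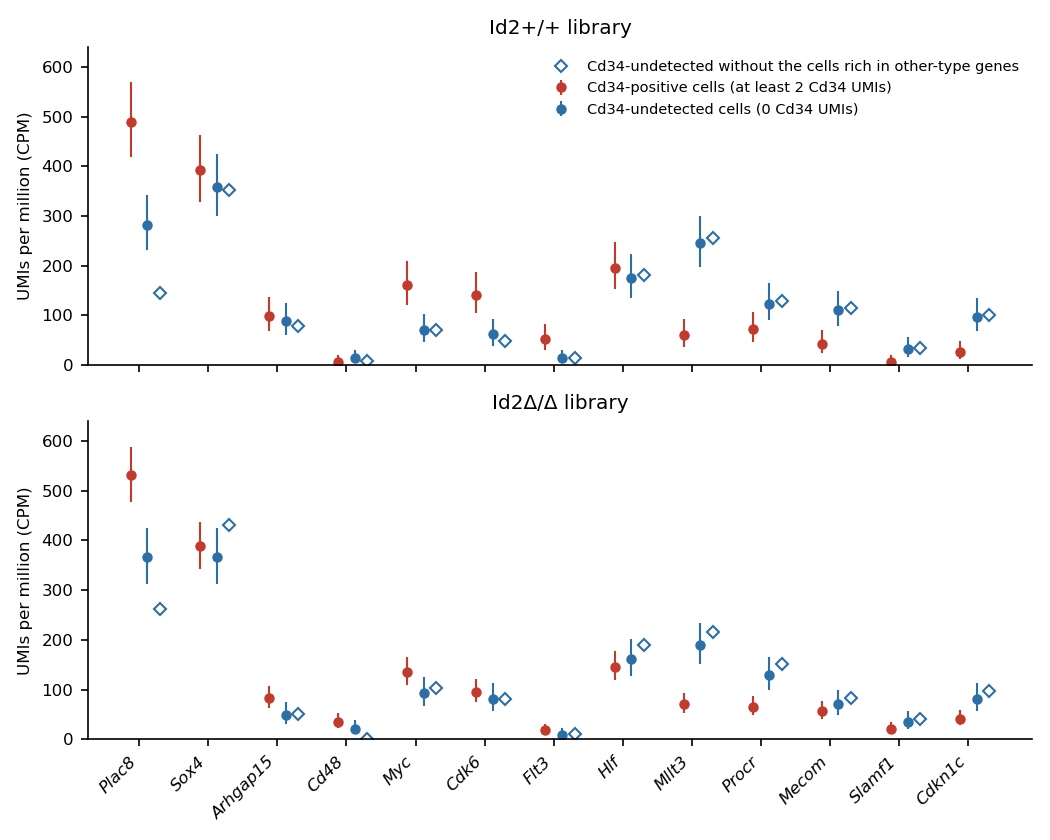
Level in CPM of 13 named genes in Cd34-positive cells (red) and Cd34-undetected cells (blue) of each library with 95% counting intervals, and in the Cd34-undetected cells without those rich in genes of another cell type (open diamonds). Plac8 stands above the Cd34-undetected cells in both libraries, Sox4 is at a like level in them, and Cd48 stands at 5.77 and 35.7 CPM in the Cd34-positive cells.

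The sums of the stem cell and quiescence lists were lower in the Cd34-positive than in the Cd34-undetected cells of both libraries. Only a minority of their members passed 1.5-fold in both. The list of stem cell genes summed to 4731 CPM against 6888 CPM in Id2+/+ cells and to 4840.1 CPM against 6426 CPM in Id2Δ/Δ cells. The ratios were 0.687 (0.645 to 0.731) and 0.753 (0.717 to 0.791), and 0.662 and 0.658 without the 5 cells, while against all other retained cells the Id2Δ/Δ ratio was 1.03. Of 20 members of the list with at least 20 UMIs, 3 were lower by more than 1.5-fold in both libraries (Mllt3, Procr and Sult1a1) and 0 were higher, where 1.7% and 1.32% of all genes passed. The median log2 ratio of the list was -0.45 and -0.23, and that of all genes with at least 20 UMIs was 0.01 and 0.01.

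Per cell, the stem cell list ran from 1749 over a median of 4448 to 11959 CPM in Id2+/+ Cd34-positive cells, and the median Cd34-undetected cell held 6698 CPM. In the Id2Δ/Δ library it ran from 1806 over 4885 to 8049.7 CPM, compared with a median of 6837 CPM. The ranges overlapped widely, and the shift was one of the middle of the group. Mllt3, a member of this list, stood at 60.5 and 71.3 CPM against 245 and 189 CPM, with ratios of 0.247 (0.146 to 0.400) and 0.377 (0.261 to 0.539). A Mllt3 UMI was found in 21.7% and 24.3% of thinned Cd34-positive cells and in 51.7% and 48.1% of thinned Cd34-undetected cells, and in 20.6% and 30.3% of thinned erythroid-gene cells, so the share in Cd34-positive cells did not stand clear of that group.

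Procr, the endothelial protein C receptor that marks long-term HSCs, stood at 72.1 and 65.6 CPM against 124 and 129 CPM, with ratios of 0.582 (0.342 to 0.967) and 0.508 (0.339 to 0.759). Ifitm1, an interferon-induced membrane protein abundant in HSCs, stood at 1124 and 1403 CPM against 2029 and 1994 CPM, with ratios of 0.554 and 0.703. Txnip, a thioredoxin-binding protein tied to HSC quiescence, gave 0.726 and 0.684. Sult1a1, a sulfotransferase, had 9 and 3 UMIs, with ratios of 0.357 (0.148 to 0.781) and 0.0904 (0.0173 to 0.301). Slamf1, which codes for the CD150 of the sort, had 2 and 15 UMIs and ratios of 0.178 (0.0194 to 0.801) and 0.622 (0.286 to 1.34).

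Other stem cell genes had ratios nearer to 1. Hlf, a transcription factor that marks HSCs, stood at 196 and 146 CPM against 175 and 161 CPM, with ratios of 1.12 (0.785 to 1.60) and 0.902 (0.663 to 1.23). Meis1, a homeobox factor, gave 0.962 and 0.932, Kit, the stem cell factor receptor, gave 0.923 and 0.866, and Ly6a, which codes for Sca-1, gave 0.971 and 1.10. Mecom, a zinc finger factor of long-term HSCs, was at 0.392 (0.201 to 0.722) in Id2+/+ cells and at 0.804 (0.494 to 1.32) in Id2Δ/Δ cells. Stem cell genes thus did not move together, with Mllt3 and Procr lower in both libraries and Hlf on both sides of 1.

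UMIs of Hlf and of Plac8 were counted in the same Cd34-positive cells. Both had a UMI in 21 of 46 Id2+/+ cells (45.7%) and 43 of 74 Id2Δ/Δ cells (58.1%), and after thinning in 26.1% and 29.7%. Thinned erythroid-gene cells had a Hlf UMI in 0 of 34 and 0 of 155 cells, which permits shares as high as 8.82% and 1.94%. Plac8 and Sox4 were found together in 33 of 46 (71.7%) and 59 of 74 cells (79.7%). A Plac8 UMI was also found in 26.5% and 10.3% of thinned erythroid-gene cells, so a UMI of both genes was not read as expression of both.

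The list of quiescence genes gave ratios of 0.759 (0.661 to 0.870) and 0.767 (0.677 to 0.868), and 1.04 and 1.10 against all other retained cells. With any number of platelet genes the Id2+/+ ratio was 1.004. Of 8 members measured, 2 were lower by more than 1.5-fold in both libraries and 0 were higher, where 1.7% and 1.32% of all genes passed. Cdkn1c, a cyclin-dependent kinase inhibitor of dormant HSCs, stood at 25.9 and 41.4 CPM against 97.0 and 81.8 CPM, with ratios of 0.268 (0.113 to 0.566) and 0.506 (0.301 to 0.843). In Id2+/+ cells that had Xist but no Y-linked UMI its ratio was 1.19, and in Id2Δ/Δ cells against all other retained cells it was 1.21. Ndn, a growth suppressor, gave 0.571 and 0.510. Pml, a nuclear body protein that with Hlf and Cdkn1c marks the study's class of HSCs, gave 0.832 (0.383 to 1.77) and 0.908 (0.483 to 1.73) and was not separated.

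Progenitor genes gave mixed results. Without the rule gene, the list of early multipotent progenitor genes gave 1.16 (1.07 to 1.26) and 0.968 (0.909 to 1.03), and 1.25 and 1.21 without the 5 cells, while in cells of 6000 to 12000 UMIs the Id2+/+ ratio was 0.978. Of 14 members measured, 0 passed 1.5-fold in both libraries in either direction. Flt3, the receptor that the sort selects against, had 18 and 13 UMIs, with ratios of 3.85 (1.38 to 13.3) and 2.16 (0.666 to 9.07). Cd27, a costimulatory receptor, gave 1.17 and 1.47. Cdk6, a cyclin-dependent kinase of early G1, stood at 141 and 95.6 CPM with ratios of 2.28 (1.36 to 3.92) and 1.17 (0.774 to 1.79). Lymphoid priming genes gave 0.603 and 1.04 and myeloid priming genes 1.08 and 0.548. Without the 5 cells these became 0.963 and 1.02 and 1.07 and 1.03.

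The direction of cell cycle genes depended on the cells compared in both libraries, and in the Id2Δ/Δ library on 1 comparison cell. The list of S phase genes gave 1.41 (1.29 to 1.55) in Id2+/+ and 0.981 (0.917 to 1.05) in Id2Δ/Δ cells, and the list of G2/M genes gave 1.36 (1.24 to 1.498) and 0.803 (0.755 to 0.855). The single Id2Δ/Δ comparison cell rich in erythroid genes held 30.5% of the S phase and 41.0% of the G2/M UMIs of its group. Without the 5 cells the ratios were 1.51 and 1.43 for S phase genes and 1.48 and 1.32 for G2/M genes. Both lists were then higher in the Cd34-positive cells of both libraries. In thinned cells with a minimum of 1 Cd34 UMI, however, the Id2+/+ ratios were 0.773 and 0.736, and with any number of platelet genes that of S phase genes was 0.841.

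Per cell the difference in cycle genes was small. The S phase list had medians of 2174 and 2020.3 CPM in the Cd34-positive cells and 1723 and 1714 CPM in the Cd34-undetected cells. The G2/M list had medians of 2054 and 2044 CPM against 1931 and 2032 CPM, with maxima of 22535 and 23101 CPM. Cells rich in G2/M RNA thus weighed on the sum. The richest single cell held 25.0% of the G2/M UMIs of the Id2+/+ group and 12.1% of those of the Id2Δ/Δ group. Against all other retained cells, which include the platelet-gene cells, the Id2+/+ ratios were 0.808 for S phase and 0.724 for G2/M genes. No cell cycle phase was read from these lists.

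Of the S phase genes, 28 were measured, and among all genes 1.32% were higher and 1.7% lower. Dtl, a ubiquitin ligase adaptor of S phase, and Hells, a chromatin remodeler of replicating cells, were higher by more than 1.5-fold in both libraries, with ratios of 2.23 and 1.68 and 2.94 and 1.64. Cdc6, a loader of the replicative helicase, was lower at 0.612 and 0.408. Of 20 G2/M genes, 0 passed in both libraries. Ccnb2, the cyclin B that the study takes as a mark of activated HSCs, stood at 57.7 and 78.5 CPM against 26.9 and 75.3 CPM. Its ratios were 2.14 (0.956 to 5.12) and 1.04 (0.670 to 1.64), and without the 5 cells 2.94 (1.19 to 8.23) and 2.21 (1.21 to 4.30).

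The 6 cycle genes that the study names were mixed. Myc, a driver of growth and of G1 entry, was higher at 161 and 136 CPM against 70.0 and 92.5 CPM, with ratios of 2.30 (1.42 to 3.82) and 1.47 (1.01 to 2.15), and without the 5 cells 2.30 (1.41 to 3.86) and 1.30 (0.895 to 1.93). Ccnd2, a D-type cyclin, was lower in Id2+/+ cells, at 323 and 342 CPM against 506 and 400.2 CPM and ratios of 0.637 (0.500 to 0.810) and 0.856 (0.704 to 1.04), but in Id2+/+ cells that had Xist but no Y-linked UMI the ratio was 1.08. Ccnd1 gave 0.917 (0.388 to 2.14) and 1.37 (0.732 to 2.66), and neither library set it apart. The later cyclins Ccne1, Ccna2 and Ccnb1 gave 2.32 and 0.442, 1.43 and 0.519 and 1.07 and 0.682, and without the 5 cells 2.23 and 1.35, 1.65 and 1.45 and 1.23 and 1.22. Cdk1, the mitotic kinase that the study lists for platelet-biased HSCs, gave 2.27 and 0.438, and without the 5 cells 2.50 and 1.04. Vwf, which codes for a clotting protein, gave 0.428 and 0.306. No intervals are given for Ccne1, Ccna2, Ccnb1, Cdk1 and Vwf, and their ratios are a description. For Ccne1 the counts were low, at 12 against 7 UMIs in Id2Δ/Δ cells without the deepest 5% of cells.

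**Figure D3:**
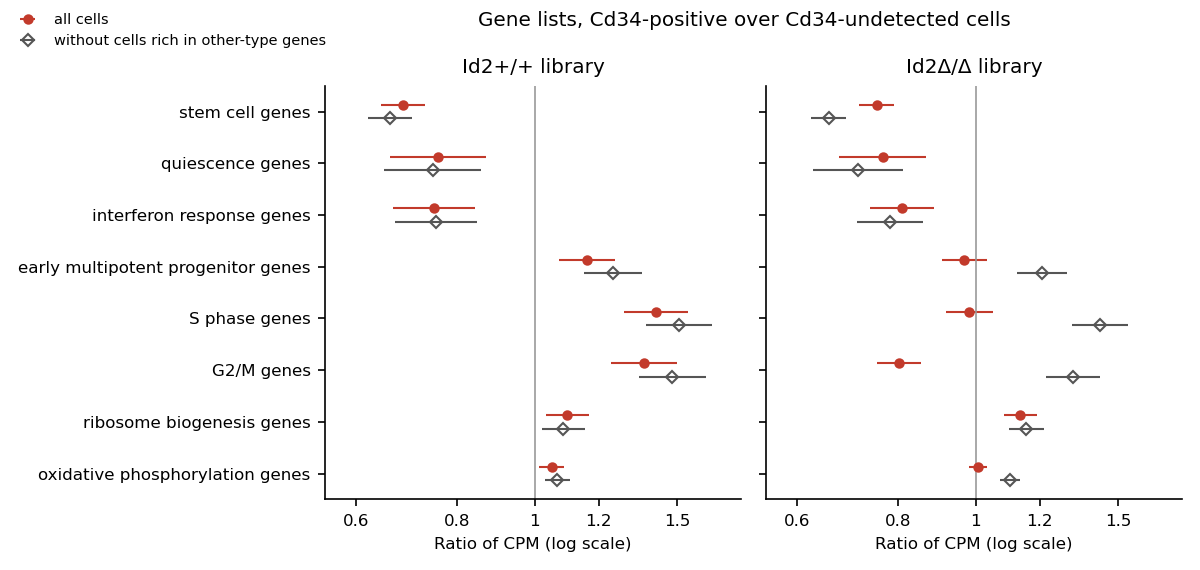
Ratio of summed CPM, Cd34-positive over Cd34-undetected cells, for 8 gene lists on a log axis, with 1 panel per library, filled circles for all cells, open diamonds without the comparison cells rich in genes of another cell type, and bars for 95% counting intervals. Stem cell genes lie at 0.687 and 0.753, left of 1 in both libraries, and the S phase and G2/M lists of Id2Δ/Δ cells move from 0.981 and 0.803 to 1.43 and 1.32.

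Interferon response genes were lower in the Cd34-positive cells, at 0.750 (0.668 to 0.842) and 0.810 (0.740 to 0.887). Of 17 measured, 0 were higher by more than 1.5-fold in both libraries, and Iigp1, an interferon-induced GTPase, was among those lower, as were 1.7% of all genes. Iigp1 stood at 28.8 and 28.5 CPM against 99.7 and 71.0 CPM, with ratios of 0.289 and 0.402, but in Id2Δ/Δ cells the ratio was 1.95 in thinned cells with a minimum of 1 Cd34 UMI and 1.12 with any number of platelet genes. The direction of the list turned to 1.06 and 1.12 when all other retained cells were the comparison, to 1.01 and 1.17 with any number of platelet genes, and to 1.002 and 1.13 in thinned cells. Both genotypes had received pIpC. Cd74, the invariant chain of MHC class II, stood at 77.8 and 64.2 CPM against 148 and 164 CPM, with ratios of 0.525 (0.319 to 0.847) and 0.393 (0.265 to 0.575), and was the 1 of 6 measured class II genes that were lower in both libraries, beside the 1.7% of all genes. Its Id2+/+ ratio was 1.502 against all other retained cells and 1.14 in cells of 6000 to 12000 UMIs. Its Id2Δ/Δ ratio was 1.21 in thinned cells and 1.15 with any number of platelet genes, so its direction depended on the cells compared.

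Genes of growth and metabolism had sums near those of the Cd34-undetected cells. Ribosome biogenesis genes were at 1.10 (1.03 to 1.17) and 1.14 (1.08 to 1.19) with 0 of 26 past 1.5-fold in both libraries, and genes of oxidative phosphorylation were at 1.05 (1.01 to 1.09) and 1.01 (0.981 to 1.03) with 0 of 57. Without the 5 cells the latter were at 1.07 and 1.10. Glycolysis and HIF-1 target genes were at 1.09 and 1.11, with Ndrg1 higher and Aldoc lower of 22, where 1.32% of all genes were higher and 1.7% lower. Cytoskeleton and adhesion genes were at 1.14 and 0.968, and without the 5 cells at 1.18 and 1.18, and of 18 only Cd44, the hyaluronan receptor, was higher in both libraries, beside the 1.32% of all genes, with ratios of 1.90 and 1.99. G1 entry genes were at 1.05 and 1.01, E protein and Id genes at 0.982 and 0.958, and receptors for niche signals and cytokines at 0.825 and 1.03. Immediate early genes were at 0.965 and 0.981, with 2 of 13 measured, Junb and Zfp36, lower in both libraries, beside the same 1.7% of all genes.

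Among genes with at least 100 UMIs in each library, H2afy was the 1 gene higher in both. It codes for the histone variant macroH2A1 and stood at 660.2 and 819 CPM against 436 and 478 CPM, with ratios of 1.51 (1.23 to 1.86) and 1.71 (1.47 to 2.01). Mllt3, Smpdl3a, Ltb and Sh3glb1 were the 4 that were lower. Smpdl3a, a phosphodiesterase, gave 0.481 (0.304 to 0.745) and 0.634 (0.467 to 0.860), and Sh3glb1, a membrane-shaping protein of autophagy, gave 0.624 (0.416 to 0.926) and 0.617 (0.436 to 0.873). Ltb, which codes for lymphotoxin beta, stood at 202 and 134 CPM against 374 and 241 CPM, with ratios of 0.539 (0.398 to 0.723) and 0.557 (0.419 to 0.739). Without the 5 cells 3 genes were higher and 6 were lower.

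By the rule for named genes, the 10 leading higher genes were led by 4930519L02Rik, at 69.2 and 88.5 CPM and ratios of 2.33 (1.10 to 5.28) and 2.28 (1.33 to 4.10). Nrm, a nuclear membrane protein, gave 2.35 and 2.13, with 0.815 in Id2Δ/Δ cells against all other retained cells. Kcnk12, a potassium channel subunit, gave 1.96 and 5.84, and Ltv1, which helps assemble the small ribosomal subunit, gave 1.73 and 1.75. Nrip1, a nuclear receptor corepressor, stood at 147 and 124 CPM against 86.2 and 73.1 CPM, with ratios of 1.71 (1.08 to 2.74) and 1.70 (1.13 to 2.60). The others were Serf1 (1.70 and 2.15), the adhesion adaptor Parvg (2.02 and 1.70), the nutrient-sensing regulator Flcn (1.68 and 2.04), Tmem97 (1.65 and 1.68) and BC028528 (1.64 and 1.86). Most of these reached 50 CPM only in the Cd34-positive cells, so their ratios are a description. These are genes of low level and their intervals are wide. In thinned Id2Δ/Δ cells Serf1 was at 0.942.

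The leading lower genes included Mllt3, Cdkn1c, Iigp1, Cd74, Junb, Ctsh, Mt1, Dalrd3 and Mgst3. Junb, a subunit of the AP-1 transcription factor, stood at 54.8 and 37.1 CPM against 124 and 86.1 CPM, with ratios of 0.442 and 0.431. With any number of platelet genes its ratios were 1.07 and 1.01, and in Id2+/+ cells it was 1.01 in thinned cells and 1.09 in those that had Xist but no Y-linked UMI. Ctsh, which codes for cathepsin H, gave 0.225 and 0.379, with 1.18 in Id2Δ/Δ cells against all other retained cells, and Dalrd3 gave 0.481 and 0.476. Mt1, a metallothionein, gave 0.357 and 0.422, and Mgst3, a microsomal glutathione transferase, gave 0.420 and 0.548. Without the 5 cells Mt1 and Mgst3 stood at 1.07 and 1.07 in the Id2Δ/Δ library, so their lower level there rested on those cells. Most of the leading lower genes reached 50 CPM only in the Cd34-undetected cells of a library, and their ratios are a description too.

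**Figure D4:**
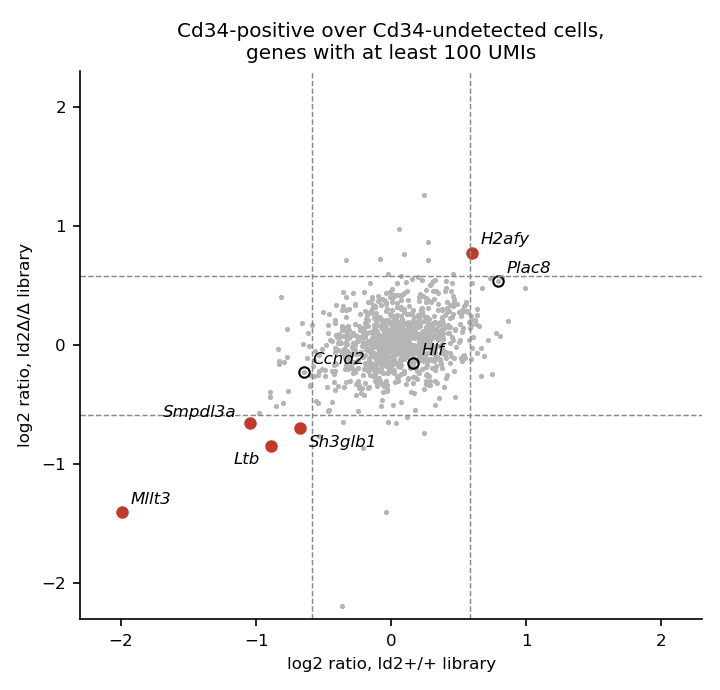
Log2 ratio of CPM, Cd34-positive over Cd34-undetected cells, in the Id2+/+ library (x axis) and the Id2Δ/Δ library (y axis) for 1022 genes with at least 100 UMIs in each, with dashed lines at 1.5-fold. Red points are the 5 genes past 1.5-fold in both libraries (H2afy higher, Mllt3, Smpdl3a, Ltb and Sh3glb1 lower), and open circles mark Plac8, Hlf and Ccnd2.

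The retained cells also held 32 Id2+/+ and 85 Id2Δ/Δ cells with at least 2 Cd34 UMIs and 2 or more platelet genes. Compared with these, the Cd34-positive cells were higher in several stem cell genes and lower in cell cycle genes. Of 950 genes with at least 100 UMIs, 4 were higher by more than 1.5-fold in both libraries (0.421%) and 5 lower (0.526%), and with a minimum of 20 UMIs 50 of 4777 (1.05%) and 57 of 4777 (1.19%). Of 19 stem cell genes, Hlf (1.74 and 2.02), Procr (2.88 and 2.44) and Ifitm1 (1.81 and 1.86) were higher in both. The list stood at 1.19 (1.10 to 1.28) and 1.09 (1.04 to 1.14).

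S phase genes stood at 0.858 (0.790 to 0.932) and 0.575 (0.547 to 0.605) in the same comparison, and Pcna, Tyms, Gins2 and Uhrf1 were among the genes lower in both libraries, of 33. G2/M genes stood at 0.587 (0.543 to 0.635) and 0.873 (0.828 to 0.920), and Cdk1, Nusap1, Top2a, Ccna2 and Aurka were lower in both, of 30. In these lists 0 genes were higher in both libraries. Cells with Cd34 and more than 1 platelet gene thus held more cycle RNA than Cd34-positive cells with at most 1. Of 16 progenitor genes, Emb, a membrane glycoprotein, was higher, at 2.09 and 1.95. The platelet-gene cells were deeper, with medians of 8671 and 10678 UMIs, and the part of depth in these ratios was not tested.

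Between the genotypes, immediate early genes were lower in Id2Δ/Δ Cd34-positive cells, while the sums of the stem cell and cycle lists stood near 1. Of 1593 genes that reached 100 UMIs in the sum of the libraries, 39 were higher by more than 1.5-fold in the Id2Δ/Δ cells (2.45%) and 73 were lower (4.58%). With a minimum of 20 UMIs, 485 of 6039 were higher (8.03%) and 817 of 6039 lower (13.5%). Of the 73 lower genes, 11 had names of ribosomal protein genes and 29 had names of gene models or pseudogenes, for which reads can be split between near-identical copies. With TMM scaling, which moved every ratio between genotypes by 0.11 on the log2 scale, 98 were higher and 59 lower, and with free RNA subtracted 124 were higher and 86 lower. The share of Cd34-positive cells was 17.5% and 17.7%, and with each cell thinned to 4000 UMIs and a minimum of 1 Cd34 UMI it was 28.9% and 29.2%. These like shares depended on the platelet-gene limit. It left out 32 of 263 Id2+/+ and 85 of 418 Id2Δ/Δ retained cells with at least 2 Cd34 UMIs. Without the limit the share was thus higher in the Id2Δ/Δ library. With no platelet gene allowed, 21 of 263 and 25 of 418 cells were kept, a lower share in the Id2Δ/Δ library.

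Among the markers, Plac8 stood at 490.1 CPM in Id2+/+ and 531 CPM in Id2Δ/Δ cells, a ratio of 1.08 (0.901 to 1.31). Sox4 gave 0.990 (0.803 to 1.23) and Arhgap15 0.844 (0.544 to 1.33), and both intervals held 1. Cd48 was higher in Id2Δ/Δ cells, at 2 against 25 UMIs, a ratio of 6.19 (1.54 to 53.9), while Flt3 was lower at 0.357 (0.161 to 0.772). Stem cell genes stood at 1.02 (0.964 to 1.09), with Gata2, a transcription factor of HSCs, the 1 of 19 lower by more than 1.5-fold, a smaller share than the 13.5% of all genes. Gata2 stood at 193 and 124 CPM, a ratio of 0.643 (0.462 to 0.897). Quiescence genes stood at 0.769 (0.672 to 0.880), and the same ratio in the Cd34-undetected cells was 0.761 (0.670 to 0.864). Of 10 measured, 4 were lower by more than 1.5-fold (Foxo3, Ndn, Btg1 and Klf6) and 2 were higher (Cdkn1c and Tsc1), compared with 13.5% and 8.03% of all genes. Cdkn1c gave 1.59 (0.735 to 3.83). Klf6 is also on the list of immediate early genes.

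The cycle genes that the study names were examined in the same cells. Ccnb1, the mitotic cyclin, was higher, at 17.3 CPM in Id2+/+ and 52.8 CPM in Id2Δ/Δ cells, a ratio of 3.05 (1.28 to 8.85), but with any number of platelet genes the ratio was 0.635. Myc gave 0.840 (0.597 to 1.19), Ccnd2 1.06 (0.844 to 1.34), Ccnd1 1.36 (0.685 to 2.89) and Ccna2 1.11 (0.461 to 2.96), with 1 inside each interval. Ccne1 gave 0.457 (0.191 to 1.09), with 1 near the upper bound. S phase genes stood at 0.968 (0.900 to 1.04) and G2/M genes at 1.06 (0.981 to 1.14), and with free RNA subtracted at 1.23 and 1.42. With TMM scaling the S phase sum stood at 1.04, so its side of 1 depended on these choices.

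Immediate early and dissociation stress genes summed to 3237 CPM in Id2+/+ and 2043 CPM in Id2Δ/Δ Cd34-positive cells, a ratio of 0.631 (0.583 to 0.683). Of 13 measured, 9 were lower by more than 1.5-fold (Fos, Fosb, Jun, Jund, Ier3, Dusp1, Dusp2, Zfp36 and Klf6) and 0 were higher, compared with 13.5% and 8.03% of all genes. The same ratio in Cd34-undetected cells was 0.621 (0.570 to 0.676). Both kinds of cell thus showed a like difference.

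Jun, a subunit of AP-1, stood at 718 (631 to 813) CPM in Id2+/+ and 203 (171 to 239) CPM in Id2Δ/Δ Cd34-positive cells, a ratio of 0.282 (0.228 to 0.348). Fos, its partner, stood at 248 and 57.1 CPM, a ratio of 0.230 (0.154 to 0.339), and Dusp1, a phosphatase of MAP kinases, at 149.9 and 47.1 CPM. Klf6, a zinc finger factor, stood at 86.5 and 24.3 CPM, and Jund at 337 and 194 CPM. In the Cd34-undetected cells the ratios were 0.308 for Jun, 0.208 for Fos, 0.181 for Dusp1 and 0.581 for Klf6.  With 1 library per genotype, genotype and library cannot be told apart.

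Genes of oxidative phosphorylation summed to 17755 and 20578 CPM, a ratio of 1.16 (1.12 to 1.19), with Ndufa12 (1.57) and Sdhc (1.56) the 2 of 57 higher by more than 1.5-fold, a smaller share than the 8.03% of all genes. The ratio in Cd34-undetected cells was 1.21 (1.17 to 1.25). Ribosome biogenesis genes stood at 1.11 (1.06 to 1.17) and glycolysis and HIF-1 target genes at 0.958 (0.908 to 1.01), with 2 of 24 lower, a smaller share than the 13.5% of all genes. These were Pgk1, a glycolytic enzyme, and Ddit4, an inhibitor of mTOR signaling. Interferon response genes stood at 1.04 (0.934 to 1.16), progenitor genes at 0.931 (0.870 to 0.997) and G1 entry genes at 0.768 (0.704 to 0.839), the last with Jun on the list.

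By the rule for named genes, the 10 leading higher genes in Id2Δ/Δ Cd34-positive cells were Chd6, Dcp2, Ccnb1, Tpd52, Fam175b, Smap1, Bri3bp, Smn1, Tctex1d2 and Cdc20. Chd6, a chromatin remodeler, stood at 14.4 and 54.2 CPM, a ratio of 3.76, and Dcp2, an mRNA decapping enzyme, gave 3.13. Cdc20, an activator of the anaphase-promoting complex, stood at 25.9 and 64.2 CPM, but its ratio was 0.720 with any number of platelet genes and 0.654 in Y-linked cells. The remaining 6 ratios lay between 2.47 and 2.86. All 10 were at low levels and reached the minimum of 50 CPM for named genes only in Id2Δ/Δ cells, so they had to differ and their ratios are a description. Whether a difference was particular to the Cd34-positive cells was not tested.

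The 10 leading lower genes were Ptgfrn, Timm8a1, Isca1, Fos, Psme2b, Rnaset2b, Hist1h2ap, Grip2, Klf6 and Jun. Ptgfrn, a membrane protein that binds tetraspanins, stood at 75.0 and 7.13 CPM, a ratio of 0.0952. Other than Fos and Jun, these reached 50 CPM only in Id2+/+ cells, and their ratios are likewise a description. Timm8a1 (0.193), Psme2b (0.238), Rnaset2b (0.247) and Hist1h2ap (0.257) have near-identical copies, so their counts are uncertain. Isca1, an iron-sulfur cluster assembly factor, gave 0.220, and Grip2, a scaffold protein, gave 0.259. Outside this rule, chosen after the values were seen, Adgrg1, an adhesion receptor of HSCs, stood at 545 and 341 CPM, a ratio of 0.626 (0.515 to 0.762). Lgals1, which codes for galectin-1, stood at 107 and 211 CPM, a ratio of 1.98 (1.37 to 2.92), and Nkg7, a granule protein, gave 1.82 (1.16 to 2.96).

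**Figure D5:**
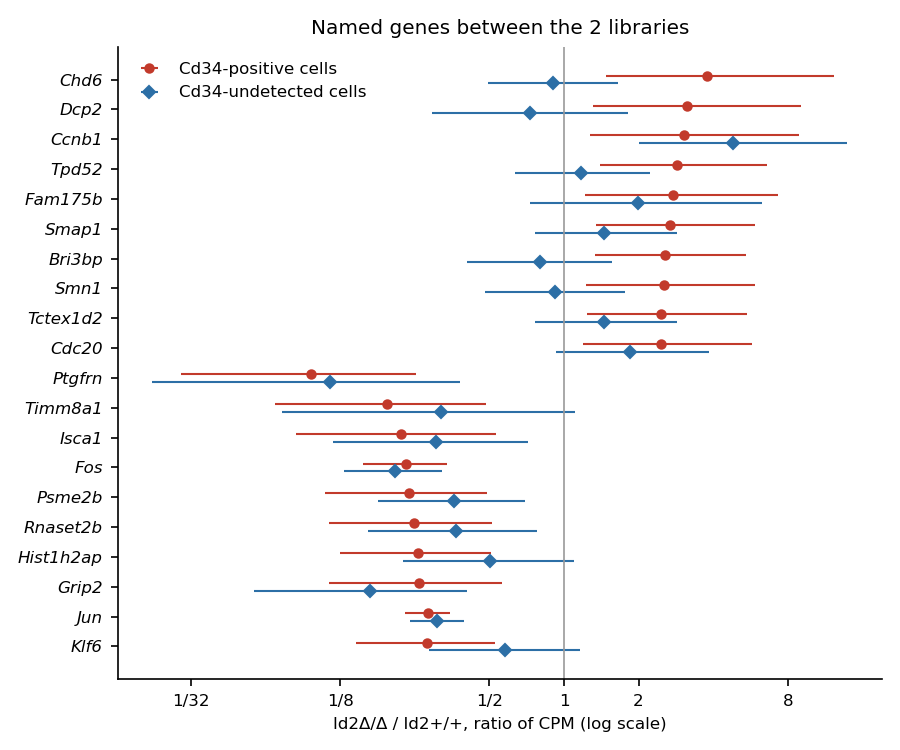
Ratio of CPM, Id2Δ/Δ over Id2+/+, on a log axis for the 10 leading higher and 10 leading lower genes in Cd34-positive cells (red) and for the same genes in Cd34-undetected cells (blue), with bars for 95% counting intervals. Fos and Jun lie at 0.230 and 0.282 in Cd34-positive and at 0.208 and 0.308 in Cd34-undetected cells.

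Cells with Xist, the X-inactivation RNA of female cells, made up 32.3% of the retained Id2+/+ cells (26.7 to 38.3) and 55.7% of the retained Id2Δ/Δ cells (50.8 to 60.6), counting those with no Y-linked UMI. Of the Cd34-positive cells, 18 of 46 Id2+/+ (39.1%, 25.1 to 54.6) and 47 of 74 Id2Δ/Δ cells (63.5%, 51.5 to 74.4) had Xist and no Y-linked UMI, so the intervals overlapped, and 12 and 14 had the reverse. Xist stood 2.07 times as high in the Id2Δ/Δ cells. Split this way, the Id2Δ/Δ over Id2+/+ ratio of stem cell genes was 1.25 in Xist cells and 0.750 in Y-linked cells, that of S phase genes 0.859 and 1.43, and that of G2/M genes 0.816 and 1.30. The 2 subsets thus lay on opposite sides of 1, and the differences were not tested. The pooled ratios also took in cells with UMIs of both kinds (1 and 7) or of neither (15 and 6). In the Id2+/+ library the leading Cd34-positive cell of each list held 17.6% of the S phase and 25.0% of the G2/M UMIs. Its part in the subset ratios was not examined. Immediate early genes kept their direction, at 0.783 and 0.523.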

How the data were processed

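The study profiled sorted HSCs with 10x Genomics 3' single-cell RNA-seq. The authors deposited, for each of 2 libraries, raw UMI counts of 27998 genes in 737280 barcodes, without a cell annotation. Per the submitters' processing notes, these counts were made with Cell Ranger 2.2.0 on mm10. Gene symbols came with the files, and 23888 of 27998 matched RefSeq for GRCm38.p6.

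Barcodes with at least 10% of the 99th percentile of the 1000 deepest, 4394 UMIs for Id2+/+ and 6178 for Id2Δ/Δ, and under 10% mitochondrial UMIs were kept. This called 349 and 632 cells, of which 333 and 625 passed the mitochondrial limit, where the labels state 383 and 686 cells analyzed. Cells with at least 10% hemoglobin UMIs, 1000 CPM of Klf1, Car1 and Epor, or 1% of Elane, Mpo, S100a8 and Ngp were removed. No doublet caller was run, and leaving out the deepest 5% of cells was an alternative. Cells are not replicates, so UMIs were summed per cell group and library and given as CPM. Levels have exact Poisson intervals, ratios exact conditional binomial intervals and shares Clopper-Pearson intervals, all at 95% and for counting error only. A count of 0 was given a floor of 3 counts. A gene was called past 1.5-fold with at least 100 UMIs over the groups compared, in each library for comparisons of cell groups, and a minimum of 20 UMIs was used for gene lists. Free RNA was estimated from barcodes of 1 to 100 UMIs.

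Named genes had to reach 50 CPM and be detected in 5% of the cells of a group. They were the 10 highest and 10 lowest of 2922 genes by the smaller log2 ratio of the libraries, or of 3277 genes by the ratio of genotypes, without ribosomal protein, mitochondrial, Xist, Y-linked and rule genes, beside the genes that mark the study's classes and the leading members of each list. A few genes that met these rules are not reported here. The cells and the gene lists were chosen with earlier results of these data known. Python 3.11.15, numpy 2.4.6, scipy 1.17.1, pandas 2.3.3 and matplotlib 3.10.9 were used, and TMM factors came from edgeR 4.0.16 in R 4.3.3. Ratios and intervals were run on simulated counts drawn from the model that the intervals assume, which checks the code only. The simulated sums held no differences between cells. Alternatives covered the Cd34 and platelet-gene limits, thinning, mitochondrial limit, scaling, free RNA, depth, sex, cycling cells and the comparison group.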

Additional observations from a re-analysis of the deposited data

Results flagged for a closer look

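G2/M genes stood on opposite sides of 1 in the libraries. Their sum in Cd34-positive over Cd34-undetected cells was 1.365 (1.244 to 1.498) in Id2+/+ cells and 0.8032 (0.7546 to 0.855) in Id2Δ/Δ cells. The single Id2Δ/Δ comparison cell rich in erythroid genes held 41.0% of the G2/M UMIs of its group, and without the cells rich in genes of another cell type the ratios were 1.48 and 1.32. The difference between libraries was not tested, since each had 1 sample.

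Between genotypes, Cd34-positive cells with Xist and no Y-linked UMI and those with a Y-linked UMI and no Xist lay on opposite sides of 1. The Id2Δ/Δ over Id2+/+ ratio of stem cell genes was 1.253 (1.146 to 1.372) in the first and 0.75 (0.6601 to 0.8523) in the second. That of S phase genes was 0.8588 (0.7765 to 0.9508) and 1.428 (1.223 to 1.672), and that of G2/M genes was 0.8162 (0.742 to 0.8987) and 1.301 (1.097 to 1.546). These differences were not tested, and they rest on 18 and 47 Xist cells and on 12 and 14 Y-linked cells.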

How the results depend on the processing

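No paired analysis was possible because there is only 1 library of each genotype, and no replicate could be left out. Each library pools 5 mice, so the spread between mice is unknown, and intervals cover counting error only. Depth limits the genes: with 346887 UMIs over 46 cells, 1 UMI was a few CPM, and a gene under 50 CPM had fewer than 20 UMIs in the Id2+/+ Cd34-positive cells. Cd34 dropout moves cells across the limit of 2 UMIs. Of the list sums, 184 values stayed within the reported interval over the alternatives, 115 moved past it and 22 crossed 1 where the reported interval had left 1 out. For single genes these were 1555, 172 and 37, the last also only where the reported ratio was past 1.5-fold. Whatever the reported interval, 67 list values and 155 gene values lay on the other side of 1. Turned ratios below are those of the stricter kind, with others added for 2 alternatives. The alternatives without the leading cell, and without the cells rich in genes of another cell type, were chosen after the values were seen. Counts below are of genes past the fold, and the reported ones were 1 higher and 4 lower between cell groups and 39 higher and 73 lower between genotypes. Ratios are of Cd34-positive to Cd34-undetected cells or of genotypes, and the cause of each change was not tested.

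With a minimum of 3 Cd34 UMIs the shares were 7.61% and 8.13%, the counts 5 higher between cell groups and 23 higher and 40 lower between genotypes. With a minimum of 1 Cd34 UMI the shares were 29.3% and 27.3%, the counts 0 higher between cell groups and 66 higher between genotypes. With none of the 7 platelet genes allowed the shares were 7.99% and 5.98%, the counts 0 higher and 0 lower between cell groups and 13 higher and 38 lower between genotypes, with Plac8 at 0.941 and Cd48 at 0.369 in Id2Δ/Δ cells. With any number of platelet genes allowed the shares were 29.7% and 38.0%, the counts 20 higher and 15 lower between cell groups and 101 higher and 159 lower between genotypes, and ratios turned to quiescence genes 1.004, S phase genes 0.841, interferon response genes 1.01 and Junb 1.07 in Id2+/+ cells, interferon response genes 1.17, Cd74 1.15, Iigp1 1.12 and Junb 1.01 in Id2Δ/Δ cells, Ccnb1 0.635 and Cdc20 0.720 between genotypes. With cells thinned to 4000 UMIs and a minimum of 1 Cd34 UMI the shares were 28.9% and 29.2%, the counts 4 higher and 23 lower between cell groups and 96 higher and 111 lower between genotypes, and ratios turned to S phase genes 0.773, G2/M genes 0.736, interferon response genes 1.002 and Junb 1.01 in Id2+/+ cells, interferon response genes 1.13, Cd74 1.21, Iigp1 1.95 and Serf1 0.942 in Id2Δ/Δ cells. With mitochondrial UMIs under 5% the counts were 2 higher between cell groups. With other cell types kept the Id2Δ/Δ share was 12.2%. With TMM scaling the counts were 2 higher between cell groups and 98 higher between genotypes. With the mean of the cells' CPM the counts were 2 higher between cell groups, and ratios turned to G2/M genes 1.11 in Id2Δ/Δ cells. With free RNA subtracted the counts were 3 higher and 7 lower between cell groups and 124 higher between genotypes. With a gene minimum of 20 UMIs the counts were 66 higher and 85 lower between cell groups and 485 higher and 817 lower between genotypes. At a fold of 2 the counts were 0 higher and 1 lower between cell groups and 1 higher and 41 lower between genotypes. Without the deepest 5% of cells the counts were 0 higher and 7 lower between cell groups, and ratios turned to G2/M genes 1.23, Ccne1 1.02, Mgst3 1.03 and Mt1 1.04 in Id2Δ/Δ cells. In cells that had Xist but no Y-linked UMI the counts were 0 lower between cell groups and 47 lower between genotypes, and ratios turned to Ccnd2 1.08, Cdkn1c 1.19, Junb 1.09 and Plac8 0.869 in Id2+/+ cells. In cells with a Y-linked UMI and no Xist the counts were 0 higher and 1 lower between cell groups and 13 higher and 20 lower between genotypes, and ratios turned to G2/M genes 1.35, Arhgap15 0.420, Ctsh 3.36, Mt1 2.24 and Nrip1 0.909 in Id2Δ/Δ cells, Cdc20 0.654 and Smap1 0.817 between genotypes. Against all other retained cells the counts were 26 higher and 44 lower between cell groups, and ratios turned to quiescence genes 1.04, S phase genes 0.808, G2/M genes 0.724, interferon response genes 1.06 and Cd74 1.502 in Id2+/+ cells, stem cell genes 1.03, quiescence genes 1.10, interferon response genes 1.12, Cdkn1c 1.21, Ctsh 1.18 and Nrm 0.815 in Id2Δ/Δ cells. Without cycling cells the counts were 2 higher and 7 lower between cell groups, and ratios turned to Ccne1 1.01, Mgst3 1.01 and Mt1 1.05 in Id2Δ/Δ cells. In cells of 6000 to 12000 UMIs the counts were 1 lower between cell groups, and ratios turned to progenitor genes 0.978, Cd74 1.14 and Plac8 0.875 in Id2+/+ cells, G2/M genes 1.35 and Mgst3 1.16 in Id2Δ/Δ cells. Without the cells rich in genes of another cell type the counts were 3 higher between cell groups, and ratios turned to G2/M genes 1.32, Ccne1 1.35, Cdk1 1.04, Mgst3 1.07 and Mt1 1.07 in Id2Δ/Δ cells, with S phase genes at 1.43, progenitor genes at 1.21, Ccna2 at 1.45 and Ccnb1 at 1.22 there too. Without the leading cell of each group ratios turned to G2/M genes 1.10 in Id2Δ/Δ cells.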
